A study of Mus musculus with 8 samples.

Results

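The histone genes were followed in regulatory T cells (Tregs) flow-sorted from mouse spleen. Members were the rows whose gene symbol begins with H1f, H2a, H2b, H3, H4 or Hist1 to Hist4, which gave 99 of the 21524 genes in the table. By symbol, 64 were replication-dependent genes (5 for H1, 17 each for H2A and H2B, 12 for H3 and 13 for H4) and 31 were variant genes. A further 3 were the cluster genes of the testis (H1f6, H2ac1 and H2bc1) and 1 was a pseudogene (H2bc26-ps). There were 4 libraries with the treatment label IL-2 (replicates 41 to 44) and 4 labelled control (replicates 45 to 48), all of total RNA from sorted splenic Tregs, and the series concerns a mutated IL-2 in C57BL/6 recipients of BALB/c hearts or kidneys. The labels gave no strain, genotype, age, sex, dose or time for these 8 libraries, nor whether the animals carried a graft, were given CTLA-4 Ig, or received the mutated or the native cytokine. Nor do they tell whether any 2 libraries share a mouse, so p-values here describe the scatter among these 8 libraries, which may be technical. Tregs are the CD4 T cells that hold other immune cells in check, and they depend on the cytokine IL-2.

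Histones are the proteins around which DNA is wound. An octamer of H2A, H2B, H3 and H4, the core histones, forms the nucleosome, and the linker histone H1 binds the DNA between nucleosomes. Replication-dependent histone genes lie in clusters, have no introns, and are transcribed mainly while a cell copies its DNA. Their messages end in a stem-loop in place of a poly(A) tail, so they are kept by a total RNA library and largely lost by poly(A) selection. Variant histone genes stand alone in the genome, mostly carry introns and poly(A) tails, and are expressed throughout the cell cycle. Their proteins, such as H2A.Z and H3.3, are exchanged into chromatin outside replication.

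Library 44 of the IL-2 group stood apart from the other 3 in these genes, so the main counts are also given without it. Among 8682 genes with at least 50 normalised reads on average in the other IL-2 libraries, 133 (1.53%) were at least 2-fold higher in library 44 than in the mean of those 3. Of the 133 genes, 38 (28.6%) were replication-dependent histone genes, out of 57 such genes compared, and 8 were among 11 genes of a G2 and mitosis list. None of 20 genes of an S phase list and none of 7 variant histone genes were. The labels gave no batch. Depth ran from 4953466 to 6399125 reads per library. The Y-linked transcript Ddx3y was at 0 in IL-2 libraries 41 and 42 and control library 45 and between 216 and 460.5 normalised reads in the other 5, while the labels gave no sex.

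The labelled cell type was matched by its markers, since Foxp3, Il2ra, Ctla4, Ikzf2 and Cd4 were well expressed in every library, with Foxp3 at 1643, 2235, 1922 and 1731 normalised reads with IL-2 and 1123, 1639, 1799 and 1587 in controls. The summed reads of these 5 ran from 34532 to 39364 with IL-2 and from 26211 to 26997 in controls. On the deposited scale 1 of the 5 was higher with IL-2, 1 was lower and 3 did not pass. Summed markers of B cells, of myeloid cells and of CD8 T and NK cells were lower with IL-2. The summed reads of 7 B cell markers ran from 121 to 241 with IL-2 and from 487 to 606 in controls, with Ms4a1 at 0 or near it. In the controls Cd74 and Cd22 held most of that sum, and Cd79b was higher on average with IL-2 (60.1 against 42 reads, with overlapping groups). Those of 8 myeloid markers ran from 827 to 1058 and from 1629 to 1896, of which Ctss held most, with Lyz2, Fcgr3, Adgre1 and Itgax near 0. Those of 6 CD8 T and NK cell markers ran from 58.7 to 125 and from 125 to 239, with Ncr1 and Klra8 near 0. Those of 8 erythroid markers ran from 0 to 43.5 and from 0 to 93.2, with Klf1 at 0. In a list of 4 plasma cell genes, whose sum ran from 495 to 597 and from 272 to 372, nearly all reads were of Xbp1, while Mzb1 was at 0 and Sdc1 and Jchain near it. Their part in the histone results was not tested. Bulk libraries also cannot tell a larger share of cycling cells from more histone RNA per cycling cell.

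Promoters of some members are shown for short elements that many, but not all, replication-dependent promoters hold. Whether these elements bear on the change with IL-2 was not tested. Each line gives the 150 bases before the annotated start, 5′ to 3′ along the gene's own strand, from RefSeq (GRCm38.p6, not the build named for these files). Capitals mark the TATA box searched as TATAAA, the CCAAT box searched as CCAAT and the octamer searched as ATTTGCAT, on either strand (ATTGG and ATGCAAAT are the reverse complements of the last pair). H1f5 encodes a linker histone (chr13:21780626-21780775 on the minus strand), H2bc8 an H2B (chr13:23571250-23571399 on the plus strand) and H3c2 an H3 (chr13:23752195-23752344 on the plus strand), all replication-dependent. H2az1 (chr3:137864337-137864486 on the plus strand) and H3f3b (chr11:116024505-116024654 on the minus strand) encode the variants H2A.Z.1 and H3.3.
H1f5: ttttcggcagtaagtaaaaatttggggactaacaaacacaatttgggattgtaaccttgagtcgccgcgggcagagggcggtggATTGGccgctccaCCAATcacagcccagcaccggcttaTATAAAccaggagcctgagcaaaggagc
H2bc8: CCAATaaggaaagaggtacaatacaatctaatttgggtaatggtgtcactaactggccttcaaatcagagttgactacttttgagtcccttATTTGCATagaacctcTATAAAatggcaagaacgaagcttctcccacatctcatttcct
H3c2: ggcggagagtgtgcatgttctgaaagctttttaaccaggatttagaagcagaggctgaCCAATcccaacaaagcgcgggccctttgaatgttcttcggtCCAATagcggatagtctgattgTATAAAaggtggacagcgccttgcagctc
H2az1: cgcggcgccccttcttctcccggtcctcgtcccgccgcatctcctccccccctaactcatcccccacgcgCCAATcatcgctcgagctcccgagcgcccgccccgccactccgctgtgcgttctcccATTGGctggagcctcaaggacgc
H3f3b: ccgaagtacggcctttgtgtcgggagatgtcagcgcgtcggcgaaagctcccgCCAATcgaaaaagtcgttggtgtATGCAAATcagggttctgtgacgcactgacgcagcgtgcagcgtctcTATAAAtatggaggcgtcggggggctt

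The TATA box of the printed H1f5 promoter began 28 bases before the start and that of H3c2 began 29 bases before it. In H2bc8 the TATA box began 43 bases before the start, with the octamer at 59 bases. H2az1 had 2 CCAAT boxes and no TATAAA in this window, and H3f3b had all 3 elements. In the 250 bases before the start, TATAAA was found in 26 of 55 replication-dependent promoters (47.3%) and in 13.0% of all 27025 promoters of the RefSeq table. CCAAT was found in 45 (81.8%) against 34.5% of all promoters. It was in every H1, H2A and H2B promoter searched (5, 16 and 13), in 8 of 10 of H3 and in 3 of 11 of H4. ATTTGCAT was found in 10 replication-dependent promoters (18.2%) against 1.61% of all promoters, 5 of them of H2A and 5 of H2B genes. Of 6 variant promoters, 5 held CCAAT, 1 held TATAAA and 1 held the octamer. These are matches of letters only. Some H2A and H2B genes lie back to back with overlapping promoter windows, so the same match could be counted for both genes.

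The question here was which histone transcripts of these Tregs changed with the IL-2 treatment. Summed replication-dependent histone transcripts of all 5 families were higher with IL-2. The core histones were 1.97-fold higher, and 1.53-fold without library 44, and the H1 family was 1.53-fold and 1.26-fold higher. None of the replication-dependent genes was called lower, though H2bc21 and H2bc27 had lower means with IL-2. Expression is given as normalised reads recovered from the deposited values, and mean ± SD with n = 4 libraries per group. The summed reads of the 64 replication-dependent genes were 30194, 28146, 27895 and 58738 in the IL-2 libraries and 16679, 21184, 18224 and 24393 in the controls. Library 44 was the highest, the other IL-2 libraries lay close together, and no control reached the lowest of them. The means were 36243 ± 15032 against 20120.0 ± 3407, 1.8-fold higher with IL-2 and 1.43-fold without library 44. As a share of all normalised reads this was 0.628% ± 0.265 against 0.36% ± 0.0608. Among libraries with Ddx3y the sum was 2.04-fold higher with IL-2 (2 libraries against 3), and among those without it 1.75-fold (2 against 1). The first ratio includes library 44, and the second rests on control library 45, the lowest control. Library 43, the other IL-2 library with Ddx3y, had 27895 against 21184, 18224 and 24393 in the controls with it.

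Gene by gene, 38 of the 64 replication-dependent genes passed the filter of at least 1 above the lowest deposited value (about 206 normalised reads) in at least 4 libraries. In limma on the deposited log2 scale, with adjustment over all 5261 genes tested, 27 of the 38 were higher with IL-2 and 0 were lower, while 11 did not pass. Of all tested genes, 16.8% were higher and 14.6% lower. The median difference of the 38 was 0.45, against -0.01 over all tested genes. Without library 44, 25 were higher and 0 lower, where 15.7% of all tested genes were higher and 13.4% lower, and the median was 0.30. By family, those 25 were 2 of 5 H1, 7 of 11 H2A, 9 of 10 H2B, 2 of 5 H3 and 5 of 7 H4 genes tested. Without control library 47 the count was 17, and without control library 45 it was 18, and these 2 libraries held the lowest control value for 28 and 24 of the 61 measured genes.

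The filter bears on that count. Of the 38 genes, 17 passed it in all 4 IL-2 libraries and in fewer than 4 controls, 4 of them in no control (H2ac6, H2bc11, H2bc14 and H4c14), and so entered the test through the group in which they were high. Of the 20 that passed in all 8 libraries, 16 were higher with IL-2 and 14 without library 44. The matching share over all genes that passed in all 8 libraries was not counted. A second fit, on log2 of normalised reads + 5, took in genes with at least 10 reads in at least 4 libraries and held 61 of the 64 genes, leaving out the 3 listed at 0 in every library (H2ac23, H2bc23 and H3c14). There 32 of 61 were higher and 0 lower, where 10.9% of 10777 genes were higher and 9.07% lower. Without library 44 it was 27, where 9.8% of all genes were higher and 8.19% lower. The IL-2 mean was the higher for 59 of the 61 genes and, without library 44, for 56.

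Every IL-2 library exceeded every control for 24 of the 38 genes, where 16.7% of the 5261 genes did so. Without library 44 the count was also 24, where 19.3% did. Over the 61 genes it was 30, where 13.0% of the 10777 did. Library 44 was the highest of all 8 for 57 of the 61 genes, and control library 48 the highest control for 41.

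**Figure D1:**
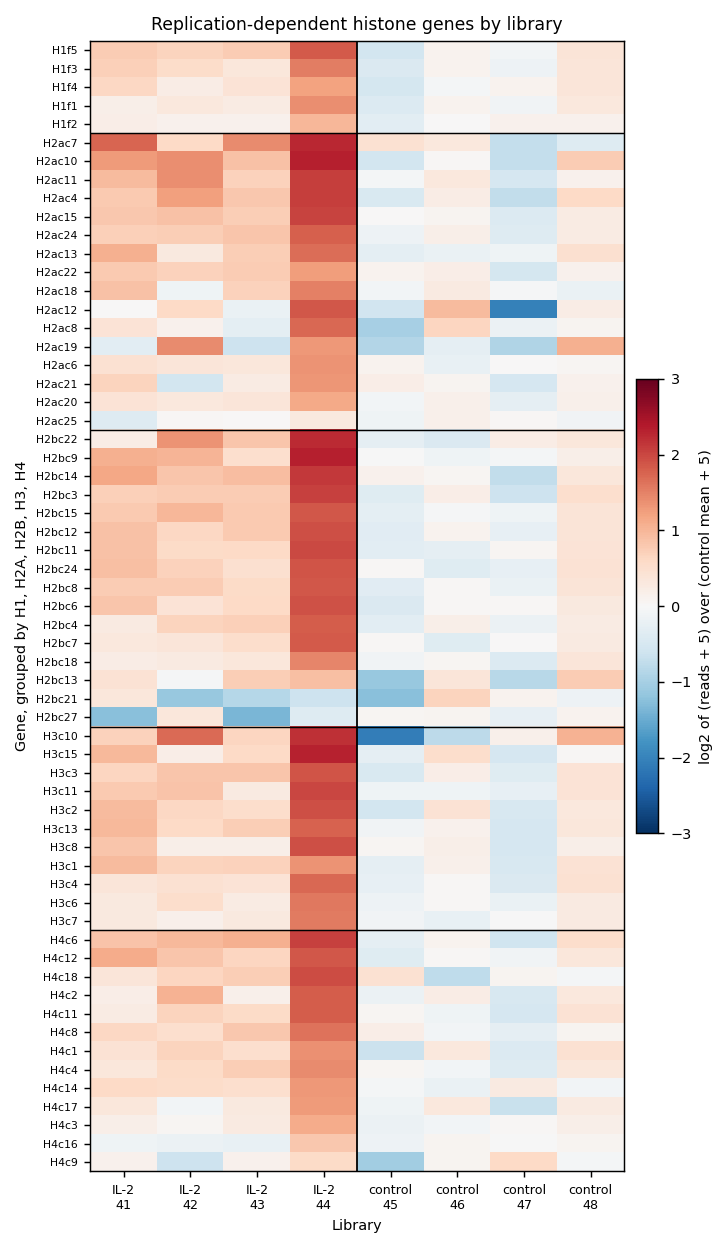
Log2 of normalised reads + 5 in each of the 8 libraries over the control mean + 5, for the 61 replication-dependent histone genes with at least 10 reads in at least 4 libraries, grouped by family and ordered by fold within each. Library 44 is the darkest column, the other IL-2 columns are mostly red, and H2ac25, H2bc21, H2bc27 and H4c9 are among the rows that are not.

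Of the H1 genes, which encode linker histones, H1f3, H1f4 and H1f5 rose and H1f1 and H1f2 did not pass. H1f5 was read 760.3, 712, 768 and 1621 in the IL-2 libraries and 304, 481, 425 and 590.4 in the controls, and the groups did not overlap. Its means were 965 ± 438 against 449.9 ± 119, 2.15-fold higher (1.66-fold without library 44), with a log2 difference of 0.56 ± 0.15 SE on the deposited scale and an adjusted p of 0.0111. H1f3 was read 2220.3, 1978, 1703 and 3929.9 in the IL-2 libraries and 997, 1449, 1208 and 1738 in the controls, so that the lowest IL-2 library lay below the highest control, 1.82-fold higher on average with an adjusted p of 0.019. H1f4 was read 2329, 1766, 2016 and 3487 in the IL-2 libraries and 1047, 1440.4, 1611 and 1934 in the controls, 1.59-fold higher with an adjusted p of 0.0305, and without library 44 it no longer passed (adjusted p = 0.0586). Of the 31-base words of these 3 genes, 2.99% (H1f3), 34.7% (H1f4) and 3.09% (H1f5) also occur in other histone genes. The share of H1f3 is over 7395 words of annotated transcripts and that of H1f5 over 713.

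H1f2 gave the most reads of any member. It was read 4665, 4416, 4456 and 8029.8 in the IL-2 libraries and 3249.6, 4076, 4454 and 4415 in the controls, a mean 1.33-fold higher and 1.11-fold without library 44 (adjusted p = 0.12). Only library 44 lay far from the rest, and the other libraries of the groups overlapped. H1f1 was read 231, 255, 242 and 544 in the IL-2 libraries and 151, 219, 188 and 252 in the controls (adjusted p = 0.135), with overlapping groups. The H1 family made up 32.3% ± 1.64 of replication-dependent reads with IL-2 and 37.6% ± 3.87 in controls, and every IL-2 library lay below every control. Its summed reads were 1.53-fold higher with IL-2 and 1.26-fold without library 44, and as a share of all reads the groups overlapped. The summed reads of the 59 core histone genes were 1.97-fold and 1.53-fold higher.

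**Figure D2:**
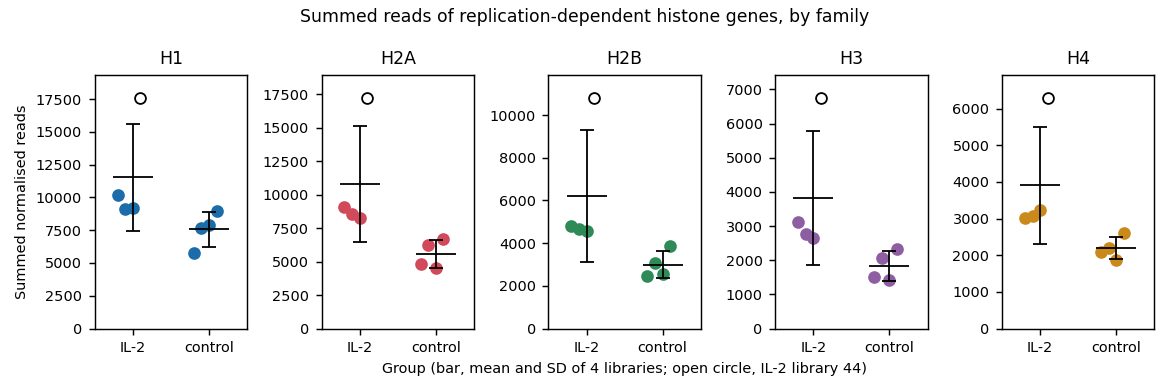
Summed normalised reads of the replication-dependent genes of each histone family in each library, with the mean and SD of the 4 libraries per group as bars and library 44 as an open circle. In every panel library 44 lies far above the other 3 IL-2 libraries, which lie above the 4 controls.

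Of 17 H2A genes, which encode one partner of the H2A-H2B dimer, 11 were tested on the deposited scale and 8 rose. Of all genes tested on that scale, 16.8% rose. Among the 8, H2ac11 passed the filter in only 1 control and H2ac4 and H2ac10 in only 2. In the fit on log2 reads 9 of 16 rose, where 10.9% of all genes did. H2ac10 was read 619, 671, 472 and 1293 in the IL-2 libraries and 171, 258, 152 and 431 in the controls, 3.02-fold higher and 2.32-fold without library 44, with a difference of 0.72 ± 0.16 SE and an adjusted p of 0.0042. H2ac24, the H2A gene with the most reads outside the H2ac18 and H2ac19 pair, was read 1108, 1129, 1206 and 2338 in the IL-2 libraries and 606, 760.4, 513 and 801 in the controls, 2.16-fold higher (adjusted p = 0.00492). H2ac11 was read 349, 476, 289.6 and 767 in the IL-2 libraries and 169, 222, 123 and 195 in the controls, 2.66-fold higher (adjusted p = 0.00509). In all 3 genes the groups did not overlap. H2ac4 was read 481, 657, 491 and 1184 in the IL-2 libraries and 199.8, 325, 163 and 422 in the controls (adjusted p = 0.00909). H2ac15 was read 602, 628, 572 and 1398 in the IL-2 libraries and 344, 359.5, 257 and 407 in the controls (adjusted p = 0.00876). H2ac20 was read 715, 668, 697 and 1185 in the IL-2 libraries and 512, 603, 443 and 596 in the controls (adjusted p = 0.0315). Their groups did not overlap either, though H2ac20 was only 1.52-fold higher. H2ac13 was read 942, 552, 752 and 1444 in the IL-2 libraries and 366, 390.5, 411 and 633 in the controls (adjusted p = 0.0142), with the lowest IL-2 library below the highest control.

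H2ac18 and H2ac19 cannot be read apart. Every 31-base word of the H2ac19 transcript lies in H2ac18, and the split between them jumped from library to library. H2ac18 was read 2756, 1373, 2423 and 4295 in the IL-2 libraries and 1424, 1821, 1461 and 1313 in the controls (adjusted p = 0.0422, and 0.0799 without library 44). H2ac19 was read 391, 1299.8, 315 and 1212 in the IL-2 libraries and 261, 403, 259 and 1021 in the controls (adjusted p = 0.322). Their sum was steadier, at 3146, 2673, 2738 and 5507 in the IL-2 libraries and 1685, 2225, 1719.5 and 2334 in the controls, without overlap of the groups and at a ratio of 1.77 (1.43 without library 44).

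Other H2A genes with 100 or more reads were less clear. H2ac6 was read 258, 242, 238 and 483 in the IL-2 libraries and 201, 159.9, 189 and 195 in the controls, with groups that did not overlap but an adjusted p of 0.0538. H2ac25 was read 240.0, 321, 319 and 385 in the IL-2 libraries and 289, 352, 324 and 292 in the controls, means of 316 and 314 (adjusted p = 0.999), and its 95% interval for the deposited-scale difference was -0.14 to 0.14. H2ac25 is thus the tested replication-dependent gene with the smallest difference. H2ac22 was read 166, 154, 161 and 231 in the IL-2 libraries and 100.3, 108, 62.9 and 102 in the controls and passed in the fit on log2 reads (adjusted p = 0.0135). H2ac12 was read 121, 184, 105 and 448 in the IL-2 libraries and 79.2, 235, 25.6 and 142 in the controls (adjusted p = 0.299 in that fit). H2ac8 was read 123, 101, 74.5 and 316 in the IL-2 libraries and 43.4, 146, 81 and 96.7 in the controls (adjusted p = 0.366). Without library 44 the ratios of H2ac12 and H2ac8 were 1.13 and 1.08. H2ac7, with fewer than 100 reads on average, was read 139, 59.7, 109.5 and 203 in the IL-2 libraries and 54.1, 49, 21.1 and 28 in the controls, the largest ratio of the members at 3.36 (2.7 without library 44, adjusted p = 0.0122).

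Of 17 H2B genes, which encode the other partner of that dimer, 10 were tested on the deposited scale and 9 rose. Of all genes tested on that scale, 16.8% rose. Among the 9, H2bc11 and H2bc14 passed the filter in no control, H2bc24 in only 1 and H2bc4 and H2bc12 in only 2. In the fit on log2 reads 10 of 16 rose, where 10.9% of all genes did. H2bc15 was read 469, 539, 468 and 994 in the IL-2 libraries and 218, 261, 245 and 349.8 in the controls, 2.3-fold higher and 1.83-fold without library 44, with a difference of 0.51 ± 0.11 SE and an adjusted p of 0.00461. H2bc14 was read 281, 222, 237 and 551 in the IL-2 libraries and 134, 127, 70.8 and 157 in the controls, 2.64-fold higher (adjusted p = 0.00836). H2bc8, whose promoter is printed above, was read 576, 579.5, 501 and 1237 in the IL-2 libraries and 265, 347, 293 and 444 in the controls, 2.14-fold higher (adjusted p = 0.014). The groups did not overlap in any of these, and library 44 was the highest in each. H2bc12 was read 403, 337, 377 and 843 in the IL-2 libraries and 170.3, 233, 184 and 285 in the controls (adjusted p = 0.0136). H2bc3 was read 584, 606, 603 and 1485 in the IL-2 libraries and 271, 408, 229 and 504 in the controls (adjusted p = 0.0186). H2bc24 was read 338, 293, 254 and 674 in the IL-2 libraries and 186, 139.6, 151 and 243 in the controls (adjusted p = 0.022). Each of these was more than 2-fold higher on average and its groups did not overlap. H2bc6 was read 630.4, 469, 533 and 1342 in the IL-2 libraries and 259, 357, 358 and 429.8 in the controls (adjusted p = 0.0274). H2bc11 was read 259, 209, 213 and 564 in the IL-2 libraries and 111, 115, 146 and 185 in the controls (adjusted p = 0.03). H2bc4 was read 281, 369, 384 and 825 in the IL-2 libraries and 184, 261, 203 and 273 in the controls (adjusted p = 0.0374). These 3 also had groups that did not overlap.

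H2bc18 did not pass. It was read 464, 479, 504 and 1095 in the IL-2 libraries and 367, 409, 297 and 505 in the controls (adjusted p = 0.1), with 3 IL-2 libraries below the highest control. H2bc9 was read 167, 159, 111 and 402 in the IL-2 libraries and 76.2, 70, 73.3 and 86.5 in the controls and passed in the fit on log2 reads (2.74-fold, adjusted p = 0.0177). H2bc7 was read 156, 163, 184 and 463 in the IL-2 libraries and 127, 96.4, 125 and 151 in the controls, without overlap of the groups and with an adjusted p of 0.0996 there. H2bc21 and H2bc27 had lower means with IL-2, and neither passed. H2bc21 had 37.2 ± 21.4 reads against 52.7 ± 28.2 (adjusted p = 0.58), and H2bc27 had 31.3 ± 20.8 against 46.1 ± 5.5 (adjusted p = 0.278).

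Of 12 genes for H3, which pairs with H4, 5 were tested on the deposited scale and 2 rose. Of all genes tested on that scale, 16.8% rose. In the fit on log2 reads 5 of 11 rose, where 10.9% of all genes did. H3c13 was read 638, 493, 543 and 1124 in the IL-2 libraries and 302, 355, 229 and 409 in the controls, 2.16-fold higher and 1.72-fold without library 44, with a difference of 0.51 ± 0.12 SE and an adjusted p of 0.00804. H3c2, whose promoter is printed above, was read 600.2, 473, 448 and 1194 in the IL-2 libraries and 208, 416, 219 and 384 in the controls, 2.21-fold higher (adjusted p = 0.0228). Neither had overlapping groups. H3c15 was read 401, 235, 306 and 1014 in the IL-2 libraries and 167, 296, 141 and 207 in the controls (adjusted p = 0.0649). H3c4 was read 206, 218, 211 and 531 in the IL-2 libraries and 132, 162, 116 and 219.7 in the controls (adjusted p = 0.0852). H3c6 was read 256, 303, 247 and 632 in the IL-2 libraries and 186, 214, 183 and 253 in the controls (adjusted p = 0.0873). These 3 were higher on average, but at least 1 IL-2 library lay below the highest control.

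A further 3 H3 genes passed in the fit on log2 reads. H3c1 was read 169, 139, 140.1 and 224 in the IL-2 libraries and 69.3, 95.6, 60.2 and 116 in the controls (adjusted p = 0.0173, and 0.0526 without library 44). H3c3 was read 197, 228, 226 and 479.7 in the IL-2 libraries and 90.2, 146, 96.9 and 168 in the controls (adjusted p = 0.0177). H3c11 was read 215, 226, 150.2 and 506 in the IL-2 libraries and 112, 112, 102 and 165 in the controls (adjusted p = 0.0392, and 0.0706 without library 44). The call for H3c11 was also lost without library 41, 42, 45, 46 or 47. The groups of H3c1 and H3c3 did not overlap, and those of H3c11 did. The remaining H3 genes did not pass, by the same fit. H3c7 was read 195, 176, 196 and 473 in the IL-2 libraries and 148, 136, 156 and 193 in the controls (adjusted p = 0.167). H3c8 was read 146, 90.6, 90 and 319 in the IL-2 libraries and 82.8, 90.9, 54.9 and 90.1 in the controls (adjusted p = 0.147). H3c10 was read 88.6, 185, 85.8 and 260.3 in the IL-2 libraries and 8.9, 28.9, 59.6 and 115 in the controls (adjusted p = 0.0561), with controls that scattered widely.

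Of 13 H4 genes, 7 were tested on the deposited scale, where 16.8% of all tested genes rose, and 5 rose. Of these, H4c14 passed the filter in no control and H4c6 and H4c12 in only 1. In the fit on log2 reads the same 5 of 13 rose, where 10.9% of all genes did. H4c12 was read 385, 317, 277 and 656 in the IL-2 libraries and 137, 181, 162 and 225 in the controls, 2.32-fold higher and 1.85-fold without library 44, with a difference of 0.44 ± 0.10 SE and an adjusted p of 0.00707. H4c6 was read 268, 294, 311 and 623 in the IL-2 libraries and 121, 158, 95 and 214 in the controls, 2.55-fold higher (adjusted p = 0.00731). H4c4, the H4 gene with the most reads, was read 528, 621, 695 and 1114 in the IL-2 libraries and 431, 396, 316 and 526 in the controls, 1.77-fold higher (adjusted p = 0.0169). In each of these the groups did not overlap, though IL-2 library 41 lay only just above control library 48 in H4c4. H4c8 was read 382, 355, 438 and 774 in the IL-2 libraries and 287, 235, 207 and 265 in the controls (adjusted p = 0.0124). H4c14 was read 240.5, 232, 225 and 389.8 in the IL-2 libraries and 151, 135, 191 and 149 in the controls (adjusted p = 0.0178). Both had groups that did not overlap.

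The other H4 genes did not pass. H4c17 was read 304, 226, 298 and 590.4 in the IL-2 libraries and 219, 304, 150.3 and 292 in the controls (adjusted p = 0.203). H4c3 was read 251, 231, 269.9 and 487 in the IL-2 libraries and 196, 210.5, 229 and 250.3 in the controls (adjusted p = 0.174). In both, library 44 stood well above the other IL-2 libraries, which overlapped the controls. H4c16 was read 183, 177, 169 and 349.9 in the IL-2 libraries and 179, 210.3, 197 and 211 in the controls, and its ratio turned from 1.1 to 0.885 without library 44 (adjusted p = 0.864 on log2 reads with it). On log2 reads, too, the next 4 did not pass. H4c18 was read 139, 169, 182 and 430.3 in the IL-2 libraries and 149.9, 61.4, 114 and 103 in the controls (adjusted p = 0.063). H4c11 was read 121, 164, 154 and 371 in the IL-2 libraries and 105, 92.3, 70.4 and 137 in the controls (adjusted p = 0.0776). In H4c11 and H4c18 too the IL-2 group was led by library 44. H4c1 was read 111, 131, 117 and 217 in the IL-2 libraries and 49.5, 102, 59.1 and 112 in the controls (adjusted p = 0.078). H4c2 was read 76.9, 141, 74.4 and 248 in the IL-2 libraries and 57.7, 78.2, 45.9 and 83.4 in the controls (adjusted p = 0.132). Both had overlapping groups. Of the 7 replication-dependent genes with between 0 and 100 reads on average, H2ac7 passed and the others (H2ac21, H2bc13, H2bc21, H2bc22, H2bc27 and H4c9) did not.

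The replication-dependent genes were also grouped by position and by the sequence they share. By the RefSeq names of GRCm38.p6, 50 replication-dependent genes lie on chromosome 13 and 10 on chromosome 3, and 4 symbols did not match. On chromosome 13, 22 of 29 genes tested on the deposited scale rose, and on chromosome 3, 4 of 7, where 16.8% of all tested genes did. Without library 44 it was 21 of 29 and 3 of 7, where 15.7% of all tested genes rose. The summed reads were 1.83-fold higher with IL-2 on chromosome 13 and 1.77-fold on chromosome 3 (1.45-fold and 1.41-fold without library 44). The difference between the clusters was not tested. For the 4 unmatched genes (H2ac25, H2bc24, H2bc27 and H4c16) the ratio was 1.29 (1.08 without library 44), with overlapping groups, and 1 of 2 tested rose. Reads of near-identical genes are divided by estimation, so values of single genes are less certain than sums. Of 57 measured replication-dependent genes matched to a GENCODE M21 transcript, 36 shared at least 50% of their 31-base words with other histone genes, and the median was 56.3%. In the fit on log2 reads, 22 of these 36 rose, where 10.9% of all genes did, with a median ratio of 2.16 (1.66 without library 44). Of 10 genes with 20% to under 50% shared, 3 rose, with a median ratio of 1.73 (1.35 without library 44). Of the 11 genes with under 20% of words shared, 6 rose, with a median ratio of 1.74 (1.46 without library 44). Shares were counted over all annotated transcripts of a gene, so long transcripts lower them. H2bc6 shared 17.8% of 4443 words, while H2bc15 shared 88.0% of 351. The grouping therefore does not single out genes whose reads are certain. Each of the 7 variant genes with 100 or more reads shared at most 9.77%.

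In 8 places an H2A and an H2B gene lie back to back, with promoter windows that overlap on opposite strands. Both partners rose in H2ac15 with H2bc15 and in H2ac11 with H2bc11. One partner passed in at least 1 of the fits and the other did not in 5 places, and the difference between partners was not tested. The partner that passed was H2ac13 beside H2bc13, H2ac22 beside H2bc22, H2ac7 beside H2bc7, H2bc12 beside H2ac12 and H2bc8 beside H2ac8. H2bc22 had a larger ratio than H2ac22 (2.8 against 1.9), but its adjusted p on log2 reads was 0.0568. H2ac23 and H2bc23 were both listed at 0.

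**Figure D3:**
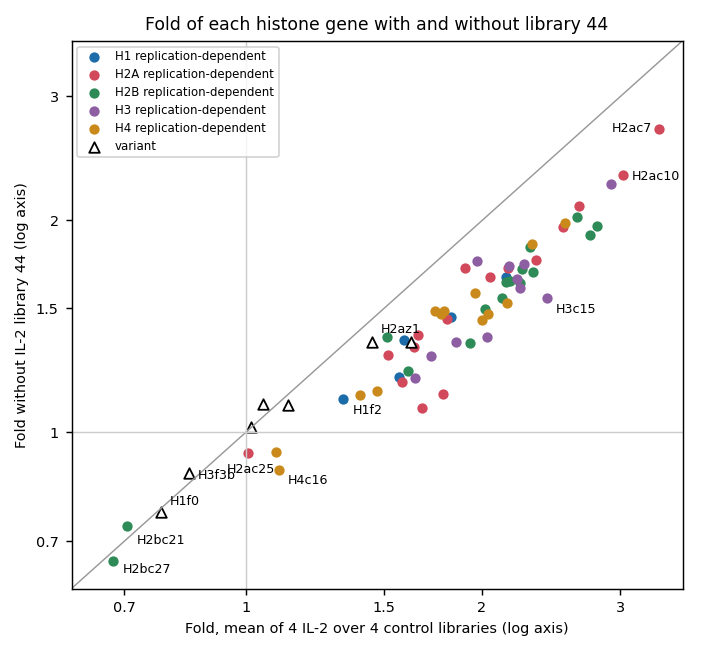
Ratio of mean normalised reads, IL-2 over control, with all 4 IL-2 libraries (horizontal, log axis) and without library 44 (vertical, log axis), for 61 replication-dependent genes (filled circles, by family) and 7 variant genes (open triangles). Most replication-dependent genes lie below the diagonal, with a median ratio of 2.0 that becomes 1.5 without library 44, while the variant genes other than H2ax lie near it.

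Library 44 was a median of 2.17 times the mean of the other IL-2 libraries over the 61 replication-dependent genes and 1.05 times over the 7 variant genes. By family, its summed reads were 1.85 times those of the other 3 libraries for H1, 2 times for H2A, 2.32 times for H2B, 2.38 times for H3 and 2.02 times for H4. Leaving it out lowered the ratios of IL-2 to control to 1.26 for H1, 1.55 for H2A, 1.57 for H2B, 1.56 for H3 and 1.42 for H4, from 1.53, 1.93, 2.08, 2.09 and 1.78. It also narrowed the spread of these sums in the IL-2 group. The adjusted p moved in both directions. For H2ac15, H2ac24, H2bc15 and H1f5 it became smaller (0.00124, 0.00102, 0.0016 and 0.00561). For others it became larger, among them H2ac13, H2ac20 and H4c14 (0.0199, 0.0387 and 0.0353), and H1f4 and H2ac18 no longer passed (0.0586 and 0.0799).

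Of the 31 variant genes, 7 had 100 or more reads on average and all 7 were tested. H2az1 rose, H1f0 and H3f3b fell, and 4 did not pass, against 16.8% of all tested genes higher and 14.6% lower. The summed reads of the variant genes were 6205, 5852, 6073 and 6564 in the IL-2 libraries and 5839, 5897, 6101 and 5706 in the controls, with overlapping groups and a ratio of 1.05. There were 5.8 ± 2.1 replication-dependent reads per variant read with IL-2 and 3.43 ± 0.649 in controls, with every IL-2 library above every control.

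H2A.Z marks promoters and enhancers, and H2az1 and H2az2 encode 2 forms of it. H2az1 was read 1160.2, 1095, 1089 and 1453 in the IL-2 libraries and 853, 898, 844 and 722 in the controls, and the groups did not overlap. Its means were 1199 ± 172 against 829 ± 75.1, 1.45-fold higher with IL-2 and 1.34-fold without library 44 (difference 0.32 ± 0.07 SE, adjusted p = 0.00343, and 0.00554 without library 44). H2az1 was 1.55-fold higher among libraries with Ddx3y, library 44 included, and 1.32-fold among those without, where control library 45 was the only control. H2az2 was read 212, 308, 231 and 250.3 in the IL-2 libraries and 227, 294, 221 and 243 in the controls (adjusted p = 0.94), with groups that overlapped and a 95% interval for the deposited-scale difference of -0.12 to 0.14.

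H2A.X is the form phosphorylated beside DNA breaks. H2ax was read 263, 212, 259.8 and 447 in the IL-2 libraries and 158, 120.0, 157 and 293 in the controls, 1.62-fold higher on average with an adjusted p of 0.084. Library 44 and control library 48 were the highest of their groups, as in most replication-dependent genes, and the groups overlapped. H2aj, a further H2A variant gene, was read 475, 359.8, 359.8 and 333 in the IL-2 libraries and 360.0, 307, 385 and 401 in the controls (adjusted p = 0.761), with overlapping groups.

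H3.3 is encoded by H3f3a and H3f3b and is the H3 deposited outside replication. H3f3b was read 1923, 1705, 1815 and 1585 in the IL-2 libraries and 2065, 2063, 2144 and 2028 in the controls, with every IL-2 library below every control. Its means were 1757 ± 145 against 2075 ± 49.2, a difference of -0.18 ± 0.05 SE with an adjusted p of 0.0263. Without library 44, the lowest of the 8, it no longer passed (adjusted p = 0.064). H3f3a was read 1753, 1781, 1916 and 2072 in the IL-2 libraries and 1715, 1689, 1784 and 1464 in the controls (adjusted p = 0.133), higher on average with IL-2 and with groups that overlapped. Reads of H3f3a per read of H3f3b were 1.08 ± 0.165 with IL-2 and 0.801 ± 0.053 in controls, with no overlap. The sum of both genes was 3637 ± 106 against 3738 ± 182, with overlapping groups.

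H1.0, the product of H1f0, is a linker histone known from resting and differentiated cells. H1f0 was read 419, 390.2, 403 and 423 in the IL-2 libraries and 456, 523, 566 and 551 in the controls, with every IL-2 library below every control. Its means were 409 ± 15.1 against 524 ± 48.6, a difference of -0.17 ± 0.05 SE with an adjusted p of 0.0246, and 0.0353 without library 44. The replication-dependent H1 genes that passed went the other way. Left out in turn, libraries 42, 46 and 47 each ended both the H1f0 and the H3f3b call, and libraries 43 and 48 that of H1f0. The highest values were those without control library 47 (adjusted p = 0.0701 and 0.0679).

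**Figure D4:**
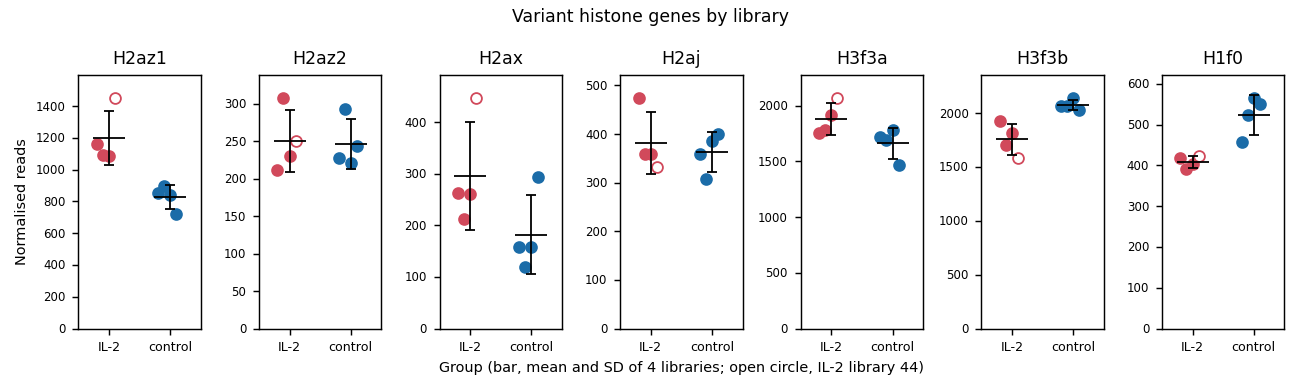
Normalised reads of the 7 variant histone genes with 100 or more reads, by library, with the mean and SD of the 4 libraries per group as bars and library 44 as an open circle. The groups do not overlap for H2az1 (higher with IL-2), H3f3b and H1f0 (lower), and overlap for the other 4.

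Of the other variant genes, 21 were listed at 0 in every library, most of them of the H2al and H2ab groups or of H1 and H3 forms known from germ cells (such as H1f7, H1f8 and H3f4). H1f10, H2al1k and H2al1m averaged fewer than 3 reads. The testis genes H2ac1 and H2bc1 were at 0 in all libraries, H1f6 had 1.02 reads in library 44 and 0 in the other 7, and H2bc26-ps had between 4.21 and 20.3 reads. Ssrp1, a histone chaperone gene used by most cells, was also listed at 0 in all 8 libraries, so a listed 0 need not mean that a gene is silent.

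Histone messages need their own processing factors, of which the stem-loop binding protein (Slbp) and the nuclease Eri1 act on the stem-loop and Npat drives transcription of the clusters. Of 16 genes of this list, 11 were tested, 2 rose (18.2%, against 16.8% of all tested genes) and 0 fell. Slbp was read 500.3, 552, 671 and 694 in the IL-2 libraries and 519, 402, 367 and 415 in the controls, 1.42-fold higher (adjusted p = 0.017), with control library 45 above IL-2 library 41. The call for Slbp was lost without library 43 or 47 (adjusted p = 0.0531 without 47). Eri1 was read 761, 681, 728 and 872 in the IL-2 libraries and 537, 662, 616 and 631 in the controls, 1.24-fold higher (adjusted p = 0.0421, and 0.105 without library 44), with groups that did not overlap. Its call was also lost without library 41, 43, 45, 47 or 48 (adjusted p = 0.112 without 45). Npat was read 317, 314, 355 and 315 in the IL-2 libraries and 485, 427, 347 and 334 in the controls (adjusted p = 0.155) and Cstf2, a cleavage factor gene, did not pass either (adjusted p = 0.122). Without library 44 Cstf2 passed, 1.32-fold higher and without overlap of the groups (adjusted p = 0.0371), so that the count of this list was again 2. In the fit on log2 reads 1 of the 16, Slbp, rose (6.25%, against 10.9% of all genes), and without library 44 it did not pass there (adjusted p = 0.0673). The median difference of the 11 was 0.05, and in library 44 none of 14 genes of this list reached 1.5 times the other IL-2 libraries.

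Histone chaperones carry histones to DNA. Of 33 genes for chaperones and exchange factors, 22 were tested on the deposited scale, 4 rose (18.2%, against 16.8% of all tested genes) and 0 fell, and their median difference was 0.04. In the fit on log2 reads 6 of 32 rose (18.8%, against 10.9% of all genes) and 0 fell. Without library 44 the counts were 3 of 22 (13.6%, against 15.7% of all tested genes) and 5 of 32 (15.6%, against 9.8% of all genes). Npm1, which binds H2A-H2B and also serves ribosome assembly, was read 5012, 4964, 4949 and 4981 in the IL-2 libraries and 3215, 3599, 3002 and 3271 in the controls, 1.52-fold higher (adjusted p = 2.92e-05). Set, Rbbp7 and Anp32e, which removes H2A.Z, were 1.25-fold, 1.23-fold and 1.5-fold higher (adjusted p = 0.00523, 0.0124 and 0.0313, the last 0.0751 without library 44). The Anp32e call was also lost without library 43, 45, 47 or 48. The groups did not overlap for the first 3 of these 4 genes.

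CAF-1 places H3-H4 on newly copied DNA, and both of its large subunit genes passed in the fit on log2 reads. Chaf1a was read 173, 314, 187 and 181 in the IL-2 libraries and 32.7, 82.5, 117 and 50.3 in the controls, 3.03-fold higher (adjusted p = 0.00542), and Chaf1b was 2.17-fold higher (adjusted p = 0.024). The Chaf1b call was lost without library 42, 43, 47 or 48 (adjusted p = 0.0656 without 48). Library 44 was not the highest in either, unlike in most replication-dependent genes. Asf1b, which hands H3-H4 to CAF-1, was read 119, 74.6, 85.6 and 199 in the IL-2 libraries and 59.9, 51.6, 51.3 and 107 in the controls (adjusted p = 0.144). Nasp, which holds a reserve of H3-H4, had 580.4 ± 95.3 against 447 ± 47.1 reads (adjusted p = 0.0534). The H3.3 chaperone genes Hira and Daxx did not pass (adjusted p = 0.645 and 0.302), with means of 257 ± 90.6 against 220.0 ± 53 and 456 ± 26.7 against 519.7 ± 77.9.

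Histone variant genes outside the symbol rule were Macroh2a1, Macroh2a2 and Cenpa. Macroh2a1, for an H2A form with a large extra domain, was read 1633, 1643, 1839.5 and 1841 in the IL-2 libraries and 886, 905, 849 and 927 in the controls. No library overlapped, and it was 1.95-fold higher with IL-2 (1.91-fold without library 44, difference 0.63 ± 0.05 SE, adjusted p = 2.89e-06). Cenpa, the H3 form of centromeres, had 110.1 ± 26.7 against 83.9 ± 39.8 reads (adjusted p = 0.378 on log2 reads), and Macroh2a2 had at most 2.86 reads in a library.

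Cell cycle genes gave a second view of library 44. Of 21 genes of S phase, 11 were tested on the deposited scale and 10 rose, with and without library 44 (16.8% and 15.7% of all tested genes did), led by Uhrf1 (2.76-fold, adjusted p = 4.68e-06), Mcm3 (2.07-fold, 1.45e-05), Mcm7 (2.17-fold, 1.46e-05) and Pcna (1.82-fold, 8.76e-05). Their summed reads were 9605, 10480.4, 9477 and 10138 in the IL-2 libraries and 5203, 5757, 5829 and 5695 in the controls, 1.77-fold higher, and library 44 was 1.03 times the other IL-2 libraries. Of 12 genes of G2 and mitosis, all 3 that were tested rose, Top2a (2.89-fold, adjusted p = 0.000556), Mki67 (2.32-fold, 0.00367) and Cenpf (2.91-fold, 0.0101), with all 3 also rising without library 44. In the fit on log2 reads 8 of the 12 rose, where 10.9% of all genes did, and without library 44 it was 6 of 12, where 9.8% did. Their summed reads were 8829, 9467, 9559 and 20600.0 in the IL-2 libraries and 4222, 5114, 4209.8 and 6183 in the controls, and library 44 was 2.22 times the other IL-2 libraries. Library 44 was thus high in replication-dependent histone and mitosis genes and not in S phase genes.

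Replication-dependent reads per read of the G2 and mitosis list were 3.42, 2.97, 2.92 and 2.85 with IL-2 and 3.95, 4.14, 4.33 and 3.95 in controls. Every IL-2 library, library 44 included, lay below every control. Per read of the S phase list the ratios were 3.14, 2.69, 2.94 and 5.79 with IL-2 and 3.21, 3.68, 3.13 and 4.28 in controls. Here the groups overlapped, with library 44 the highest of the 8 and control library 48 the next. Both ratios were chosen after the values of these libraries were seen.

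**Figure D5:**
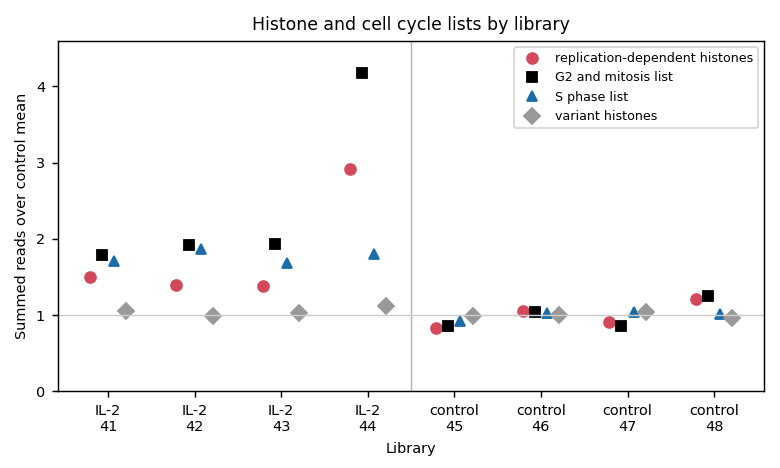
Summed normalised reads in each library over the control mean, for replication-dependent histone genes (circles), the G2 and mitosis list (squares), the S phase list (triangles) and variant histone genes (diamonds). The circles and squares of library 44 stand far above those of IL-2 libraries 41 to 43, while its triangles and diamonds do not.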

How the data were processed

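Stranded libraries were made from total RNA of sorted splenic Tregs, per the labels' protocols. The authors deposited 1 table of variance-stabilised log2 values per gene and library. Per the submitters' processing notes, Salmon, DESeq2 and GRCm39 were used, but neither settings nor annotation could be read from these notes. Reads shared by near-identical genes are divided by Salmon by estimation. The lowest value, 8.69, stands for 0 reads, and normalised reads were recovered by inverting the stabilising formula. As a check, 36 of the 40 commonest low values came out as whole reads within 0.001. The deposited scale is compressed, since 1 unit above the lowest value is about 206 normalised reads, so its differences understate folds, which are ratios of mean normalised reads. Depth was 4953466 to 6399125 reads per library.

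The main test was limma (lmFit, eBayes with trend, no covariates) on the deposited values of genes at least 1 above the lowest in at least 4 libraries, with Benjamini-Hochberg adjustment over all of them and a threshold of 0.05. A second fit used log2 of normalised reads + 5 for genes with at least 10 reads in at least 4 libraries. Only the main test was tried on simulated data, and the second fit was not. Histone kinds were assigned by symbol. The members, lists and tests were chosen with earlier results of these data known. Genes were named by a rule: members with a mean of 100 or more reads, others that passed, up to 4 genes per list with the smallest adjusted p, and a few named chaperones and variants. Alternatives were other filters, quantile normalization, median centring, limma without trend, with robust fitting or array weights, other pseudocounts (1 and 20) and leaving out each library on the same genes. A fit with the presence of Ddx3y as a covariate was chosen after seeing the data. Promoters came from RefSeq GRCm38.p6, where 92 of 99 symbols matched, and no coordinates were converted. limma 3.58.1 ran in R 4.3.3, and pandas 2.3.3, numpy 2.4.6 and matplotlib 3.10.9 in Python 3.11.15.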

Additional observations from a re-analysis of the deposited data

Results flagged for a closer look

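In a group of 4 libraries, a library was singled out when its gap to the nearest other, divided by the range of the group, was above Dixon's 95% critical value. Chance alone marks about 1 in 20 groups. Of 124 groups examined (62 histone genes in 2 groups), 27 held such a library, which was IL-2 library 44 in 25 and control library 48 in 2. Among H1 genes its normalised reads were 544 for H1f1, 8029.8 for H1f2 and 1621 for H1f5. Among H2A genes its normalised reads were 1398 for H2ac15, 1185 for H2ac20, 231 for H2ac22, 2338 for H2ac24 and 483 for H2ac6. Among H2B genes its normalised reads were 564 for H2bc11, 843 for H2bc12, 994 for H2bc15, 1095 for H2bc18, 1485 for H2bc3, 463 for H2bc7 and 1237 for H2bc8. Among H3 genes its normalised reads were 479.7 for H3c3, 531 for H3c4, 632 for H3c6 and 473 for H3c7. Among H4 genes its normalised reads were 371 for H4c11, 389.8 for H4c14, 349.9 for H4c16, 430.3 for H4c18, 487 for H4c3 and 623 for H4c6. Library 44 was above the other IL-2 libraries in each.

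Sums over genes gave the same library. In library 44 the replication-dependent sum was 58738 normalised reads. By family it was 17611 for H1, 17254 for H2A, 10816 for H2B, 6759 for H3 and 6298 for H4. The sum of the G2 and mitosis list was 20600.0. In control library 48, H2ac13 had 633 and H3c11 had 165 normalised reads, above the other controls.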

How the results depend on the processing

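No paired analysis was possible because the groups share no replicate numbers. Of 1650 genes called among all tested, a stricter filter (at least 2 above the lowest value) left 737, since it tested fewer genes. The 27 replication-dependent genes called higher became 4 under that filter, which tested only those 4 of the 27, and all 4 kept the call. Leaving out 1 library at a time gave 17 to 29, with 17 without control library 47 and 18 without control library 45, and 0 were called lower under any setting run. H1f3, H2ac18, H2ac20, H2bc3, H2bc4, H2bc6, H2bc11 and H3c2 lost the call whichever of these 2 was left out, H1f4 without 45, and H2bc24 and H4c4 without 47. H1f4, H2bc4, H2bc6, H2bc11 and H2bc24 lost it without 46, H1f4 also without 41 or 44, H2bc4 without 43, and H2ac18 without 41, 43, 44 or 48. The other settings gave 20 (robust fitting) to 33 (log2 of reads + 20). Variant genes called lower, 2 in the main test, were 1 under the stricter filter, where H1f0 was not tested, and 0 to 2 with 1 library left out, and those called higher, 1, were 1 to 2. The ratio of summed replication-dependent reads ran from 1.43 to 1.94 with 1 library left out, and that of variant genes from 1.03 to 1.07. Of 36 named histone genes that were called, 16 lost the call under at least 1 setting and 0 changed direction.

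The direction reversed for 4 genes that did not pass. H2ac25 had a log2 difference of -0.0018 with quantile normalization, -0.013 with median centring, -0.017 with array weights, and -0.0055, -0.0058 and -0.0046 on log2 of reads + 5, + 1 and + 20. With 1 library left out it ran from -0.041 to 0.049. H2az2 had -0.0059 with median centring and -0.0038 with array weights, and -0.031 to 0.040 with 1 library left out. H2aj ran from -0.019 to 0.056 with 1 library left out, and H4c16 from -0.17 (without library 44) to 0.17. The cause was not tested. With Ddx3y as a covariate 31 replication-dependent genes were called higher, 0 lower, and H1f2, H2ac6, H3c4 and H3c15 joined (adjusted p = 0.0307, 0.0499, 0.0457 and 0.0345). With 4 libraries per group and estimated reads, differences of genes under about 206 normalised reads were tested only in the second fit.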
